A study of Sus scrofa with 48 samples.

Results

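The genes described here encode the parts of the respiratory chain that come after complex I, namely succinate dehydrogenase (complex II), the cytochrome bc1 complex (complex III), cytochrome c, cytochrome c oxidase (complex IV) and ATP synthase (complex V). They were chosen by name: a probe of the microarray was a member when its gene name began with SDHA to SDHD, UQCR, COX and a digit, or ATP5, or was CYC1 or CYCS. The rule found 212 of the 60305 distinct probes of the array, under 51 gene names, and 211 of them were well above background on at least 12 of 48 arrays and were tested along with all 42125 probes that passed this filter. The member left out was 1 of 4 COX7C probes, which was well above background on 1 array. The rule itself uses names and detection, and no measured difference between groups. The names also caught COX4NB, ATP5SL and COX7A2L, which are not core subunits of these complexes, and the COX10, COX15, COX16 and COX17 genes, whose products help to assemble complex IV.

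RNA of the longissimus muscle was measured in 48 growing Large White barrows of a pair of lines selected in opposite directions for residual feed intake (RFI), the part of feed intake that growth and maintenance do not account for. Pigs of the low RFI line (RFIneg) and of the high RFI line (RFIpl) ate freely, either a diet high in fat and fiber (HF) or a diet low in both (LF), and each of the 4 combinations of line and diet held 12 pigs, with 1 array per pig. Each direction of selection was represented by a single line, so that a response to selection and a chance difference between the lines cannot be told apart. Whole muscle was used, so that fewer fibres of a type and less RNA per fibre cannot be told apart either.

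In the respiratory chain, complex II passes electrons from succinate to ubiquinone, complex III passes them on to cytochrome c, complex IV hands them to oxygen, and complex V makes ATP from the proton gradient that results. Complex II is encoded in the nucleus alone, whereas complexes III, IV and V combine subunits from the nucleus with a few from the mitochondrial genome. Several small subunits of complex IV exist as an isoform of contractile muscle and an isoform found in most tissues, and longissimus is a mainly fast, glycolytic muscle.

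A level below is the log2 of the processed spot intensity minus the mean of all tested probes of the same array. A line difference is the level in high RFI pigs minus that in low RFI pigs, averaged over both diets, and a probe was called when the p-value of limma, adjusted by Benjamini-Hochberg over all tested probes, was under 0.05. Levels of different probes cannot be compared with each other. The median processed signal ranged from 52.8 to 107.9 between arrays, and the highest value, in high RFI pig 10 on the HF diet, belonged to the array that also agreed least with its group (mean r = 0.974). All 10 genes in a list of fast fibre markers and 7 of 8 in a list of slow fibre markers had a tested probe, and their brightest probes were well above background on all 48 arrays. Of the 211 tested members, 210 were well above background on all 48 arrays.

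The members were measured by probes of 60 bases, and many of these lie on the same stretch of a transcript. When probes of a gene that share an identical run of at least 20 bases were taken as 1 target window, the 212 probes fell into 150 windows. The sequences below belong to CYCS and UQCRB, the 2 genes with probes called in both directions between the lines, and only 30 bases of each are shown. Capitals mark the bases at which a pair of overlapping probes differs.
CYCS probe A_72_P573694: gctgtaccAtCagcacagatTtgtaaatta
CYCS probe A_72_P592869: gctgtaccGtGagcacagatCtgtaaatta
UQCRB probe A_72_P473671: cttggttaAacCcgaaatgtacaatgtaga
UQCRB probe A_72_P677010: cttggttaGacGcgaaatgtacaatgtaga
UQCRB probe O2995: gcgagatgatacaatatatgaggatgacga
Over the 52 bases on which both CYCS probes lie, they differ by 3 substitutions, A9G, C11G and T21C, counted from the 5′ end of the second probe with the base of the first probe first. The UQCRB pair differs over 57 shared bases by 2 substitutions, A9G and C12G, counted in the same way, and both of its probes were called lower in high RFI pigs. The UQCRB probe O2995 shares no run longer than 6 bases with any of the 7 other UQCRB probes, on either strand.

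Strand also differed within the set. Probes of COX1, the catalytic core of complex IV encoded by the mitochondrial genome, are shown whole, with the stretch in capitals whose reverse complement lies in the other probe.
COX1 probe A_72_P730653: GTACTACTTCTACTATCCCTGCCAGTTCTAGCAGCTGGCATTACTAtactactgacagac
COX1 probe O13550: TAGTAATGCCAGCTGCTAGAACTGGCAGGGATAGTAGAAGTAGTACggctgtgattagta
These probes face opposite strands over 46 bases, as did a pair of COX5B probes over 56 bases. In addition, 19 tested members shared a run of at least 20 bases with a probe that was no member, such as SDHA probe O4591, which is identical over all 60 bases to a probe named for the pseudogene SDHAP3, so signal from SDHA and from that copy could not be separated.

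The first question was whether transcripts of the respiratory complexes differed between the lines. In high RFI pigs, 47 of the 211 member probes differed from low RFI pigs, with 9 higher and 38 lower. The members with higher levels were 6 probes of COX6A1, 2 of CYCS and 1 of UQCRB, whereas the lower calls came from 16 genes, 14 of them subunits of complexes II to V, along with CYCS and COX4NB. Over all 42125 tested probes, 16.4% were called, 6.57% higher and 9.85% lower, while 22.3% of the members were called. At an unadjusted p under 0.05 the shares were 31% of all tested probes and 95 of the 211 members. The median line difference was -0.07 over the members and -0.03 over all tested probes. The 47 called probes lay in 32 target windows of 17 genes, so that they are fewer than 47 separate measurements.

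**Figure D1:**
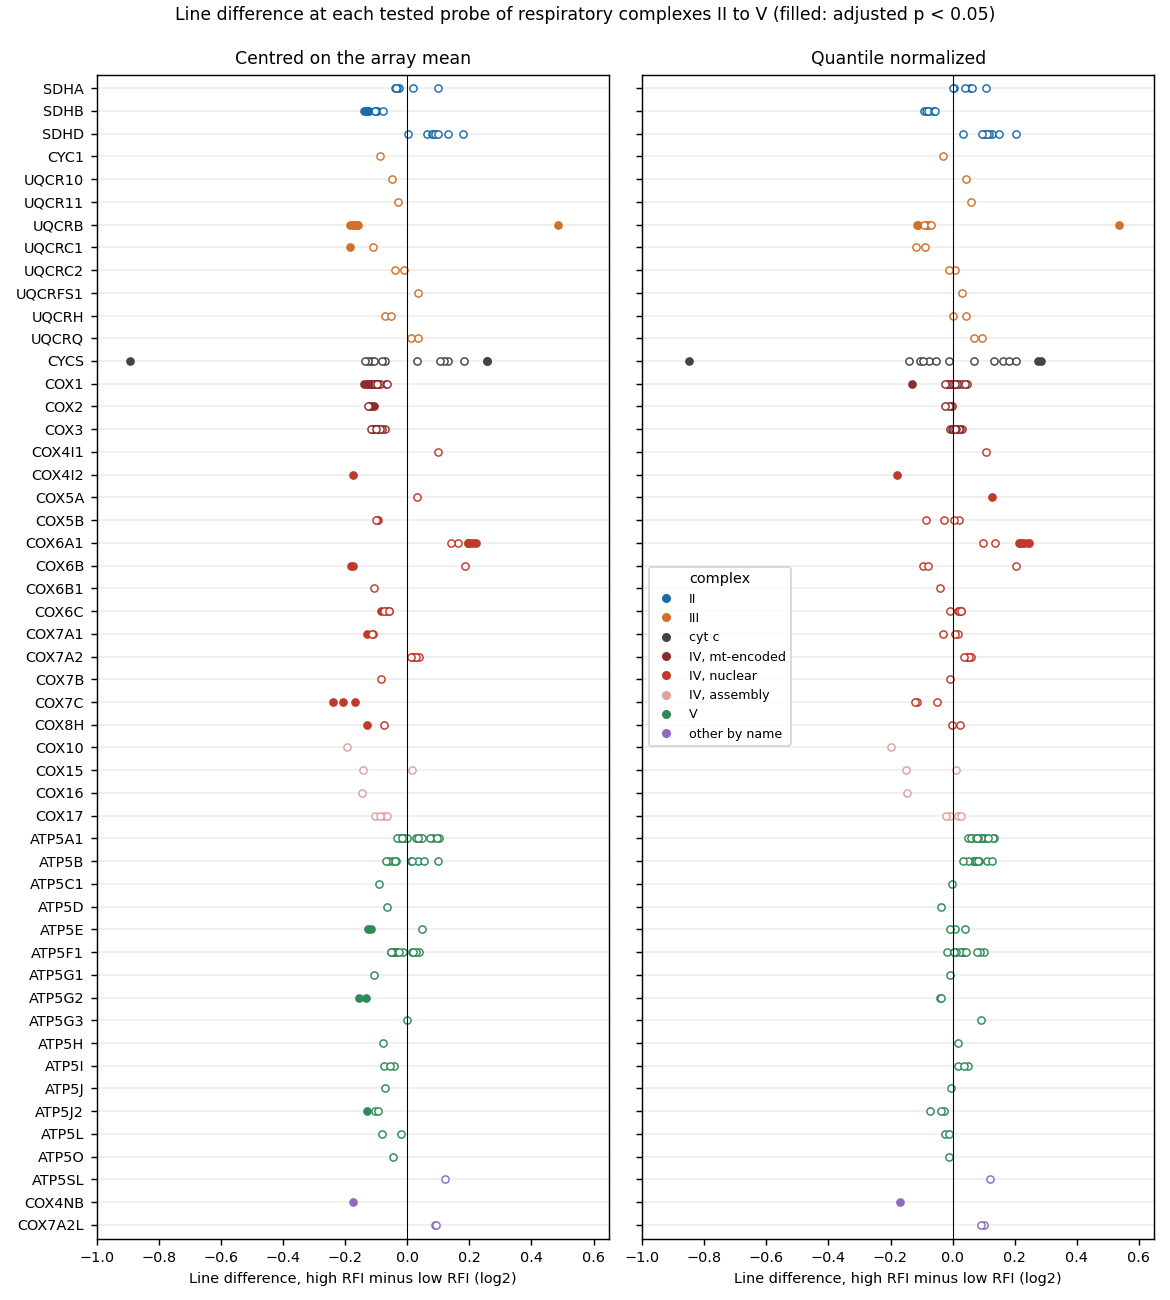
Line difference (log2, high RFI minus low RFI, horizontal axis) at each of the 211 tested probes, by gene and coloured by complex, with probes called at an adjusted p under 0.05 filled. The left panel shows levels centred on the array mean, with 9 higher and 38 lower calls, and the right panel shows the same probes after quantile normalization, with 10 higher and 6 lower calls.

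Most of the lower calls depended on whether the arrays were quantile normalized. After quantile normalization, which gives every array the same distribution of values, all 9 higher calls remained called, but 6 of the 38 lower calls did, and the median line difference of the members turned from -0.07 to 0.01. Of the 38 probes, 34 still had a negative difference and 4 had a positive one. The background moved less, with 14.9% of all tested probes called after quantile normalization, 6.68% higher and 8.25% lower, against 10 and 6 of the 211 members. With the brightness of the array as a covariate 24 members were called, 6 higher and 18 lower, against 12.9%, 5.55% and 7.31% of all tested probes. Scaling to the 75th percentile kept the lower calls, with 9 members higher and 44 lower, against 2723 and 4635 of the 42125 tested probes. The normexp background correction gave 10 members higher and 22 lower, against 2695 and 2991 of all tested probes.

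The members whose calls were lost had high levels. A mean level above 6 was found for 134 of the 211 members, but for 1947 of the 42125 tested probes. Among all tested probes above that level the median line difference was -0.10, and 33.1% were called lower and 1.85% higher, compared with 34 and 1 of the 134 members. After quantile normalization the median of all these probes was -0.01 and that of the members among them 0.01. Quantile normalization makes the high values of all arrays equal, so a median near 0 over all these probes follows from the method. Among probes at a level of 6 or below, 8.73% of all tested probes were called lower and 6.80% higher, compared with 4 and 8 of the 77 members, or 5.19% and 10.4%. What produced the shared shift of high levels was not tested.

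**Figure D2:**
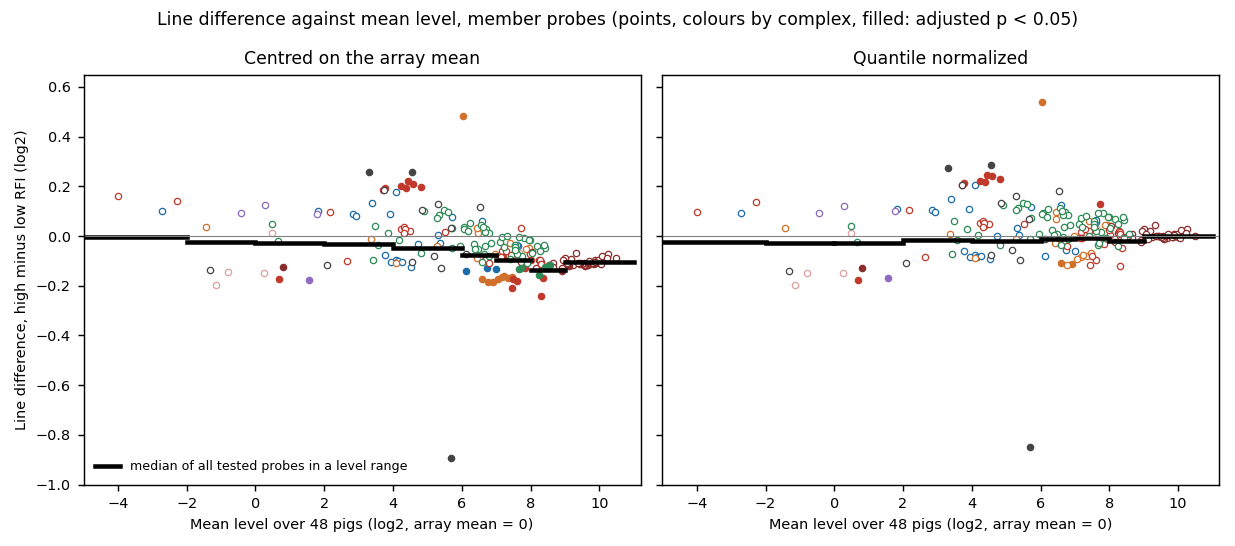
Line difference (log2, vertical axis) against the mean level over 48 pigs (log2, horizontal axis) for the 211 tested members, coloured by complex and filled where called, with black bars for the median of all tested probes in each range of levels. With centring on the array mean the black bars sink to -0.13 at levels of 8 to 9, and after quantile normalization they stay between -0.03 and 0.00. Bars near 0 at high levels follow from that method, which makes the high values of all arrays equal.

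Across 14 settings, the main one and 13 that changed the scaling, the filter, the covariates, the arrays included or the test, 10 of the 47 calls were made each time. These were UQCRB at probe O2995 and at 2 of its 7 other probes, 5 probes of COX6A1, CYCS probe A_72_P592869, and COX4NB. The account below takes the complexes in the order of the electron path, and gives a gene by its brightest probe unless another is named.

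In complex II the calls were confined to SDHB, the iron-sulfur subunit. Of the 24 tested probes of the complex 3 were called lower in high RFI pigs, all of them SDHB probes, and none higher. At the brightest SDHB probe, levels on the HF diet were 6.88 to 7.33 (median 7.04) in the low RFI line and 6.81 to 7.29 (median 7.02) in the high RFI line. On the LF diet they were 6.74 to 7.39 (median 7.04) and 6.69 to 7.12 (median 6.83). The lines overlapped widely, with 16 of 24 high RFI pigs under the median of the low RFI pigs. The line difference was -0.13 ± 0.04 (SE; limma, adjusted p = 0.0289), all 9 SDHB probes had negative differences from -0.14 to -0.08, and none was called after quantile normalization (-0.06 at the brightest probe).

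The other subunits of complex II did not pass the test. SDHD, one of the membrane anchors, had positive differences at all 9 probes, from 0.00 to 0.18, and 0 calls, with 0 of 9 also at an unadjusted p under 0.05. SDHA, the flavoprotein that oxidises succinate, gave -0.04 ± 0.05 (SE) at its brightest probe (adjusted p = 0.59), with a 95% interval from -0.13 to 0.05, and 2 positive and 4 negative differences over 6 probes. The median over complex II was -0.03, and it was positive after quantile normalization (0.04) and with the normexp background correction (0.01). No SDHC probe met the name rule.

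In complex III the calls came mostly from UQCRB, a small subunit next to the ubiquinone site. Its 7 overlapping probes were all called lower in high RFI pigs, from -0.18 to -0.16, whereas the separate probe O2995 was the most clearly higher member of all, at 0.48 ± 0.08 (SE; limma, adjusted p = 3.6e-05). At O2995, levels on the HF diet were 5.34 to 6.45 (median 5.69) in the low RFI line and 6.06 to 6.51 (median 6.32) in the high RFI line. On the LF diet they were 5.20 to 6.17 (median 5.64) and 6.005 to 6.46 (median 6.22). Every high RFI pig lay above the median of the low RFI pigs, and 17 of 24 low RFI pigs lay below the lowest high RFI pig. The spread was wider in the low RFI line, with an SD of 0.40 and 0.32 on the HF and LF diets (n = 12 each), against 0.15 and 0.14 in the high RFI line. Whether O2995 follows the amount of the UQCRB transcript in both lines was not tested, and no genotypes were used here.

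At UQCRB probe A_72_P677010, one of the overlapping probes, the order was the opposite. Levels on the HF diet were 6.72 to 7.19 (median 7.05) in the low RFI line and 6.64 to 7.10 (median 6.86) in the high RFI line, and on the LF diet 6.77 to 7.19 (median 7.004) and 6.61 to 7.02 (median 6.78). The ranges overlapped, although 22 of 24 high RFI pigs were under the median of the low RFI pigs. The line difference was -0.18 ± 0.04 (SE; limma, adjusted p = 0.00144), and -0.11 after quantile normalization, which left 2 of the 7 lower calls. Its partner A_72_P473671, with 2 other bases, gave -0.17 ± 0.04 (SE), and the difference between this pair of probes was not tested. The mean over all 8 UQCRB probes, -0.09, was not called (adjusted p = 0.111).

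**Figure D3:**
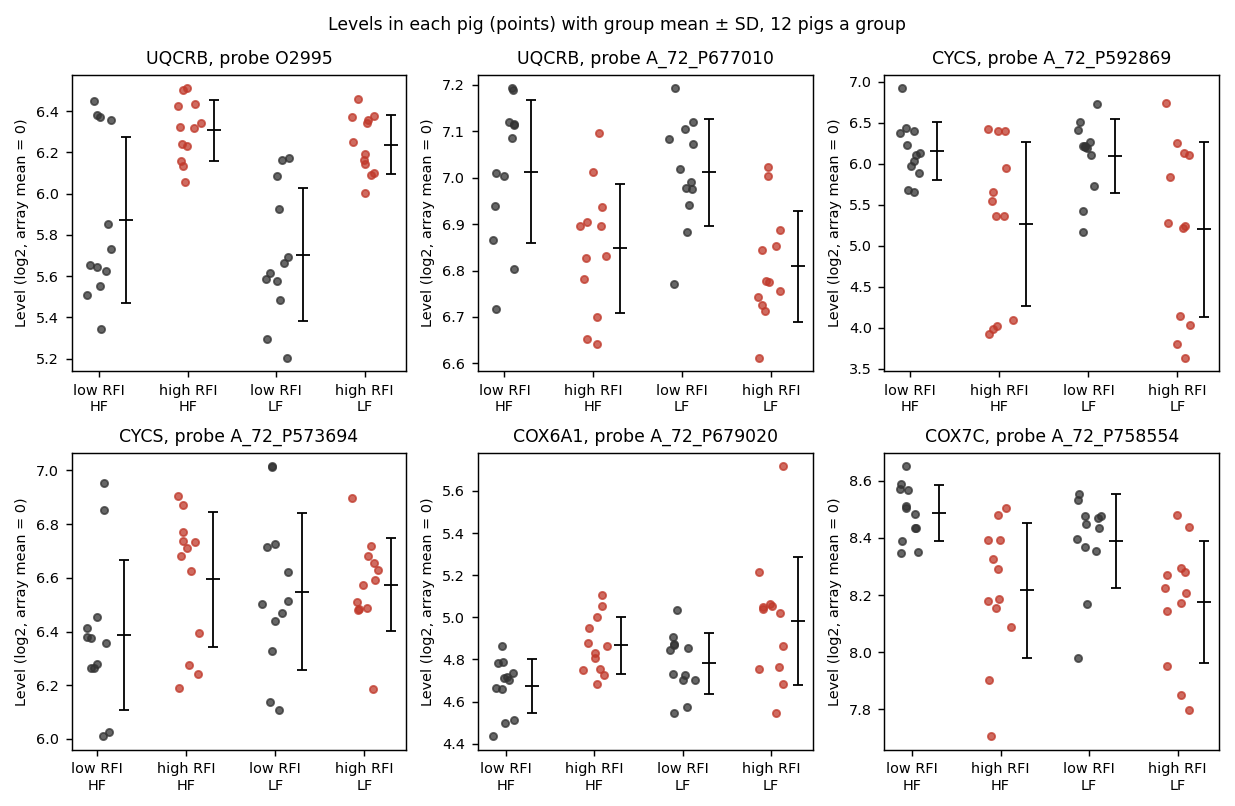
Level of 6 member probes in each pig (points, log2 with the array mean at 0, vertical axis) in the 4 groups of 12, with the mean and SD beside them; low RFI pigs are black and high RFI pigs red. UQCRB probe O2995 lies higher and UQCRB probe A_72_P677010 lower in high RFI pigs, and at CYCS probe A_72_P592869 there are 8 high RFI pigs, but no low RFI pig, at or below 4.14.

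Apart from UQCRB, 1 of the 12 other tested probes of complex III was called. It belonged to UQCRC1, a core subunit, with -0.19 ± 0.06 (SE; limma, adjusted p = 0.0202), and with -0.12 and no call after quantile normalization. Its other probe had -0.11 and was not called. UQCRC2, the second core subunit, had -0.04 ± 0.06 (SE; 95% interval from -0.17 to 0.09), the Rieske protein gene UQCRFS1 had 0.04 ± 0.07 (SE; -0.10 to 0.17), and CYC1, cytochrome c1, had -0.09 ± 0.06 (SE; -0.21 to 0.03). The intervals of all 3 held 0. UQCRFS1 was measured by 1 probe below the array mean, at -1.93 to -1.10 in high RFI pigs and -1.79 to -0.74 in low RFI pigs.

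CYCS encodes the cytochrome c of somatic cells, the mobile carrier between complexes III and IV, and its 14 probes disagreed in direction. Of these probes 7 had positive and 7 negative line differences, 2 were called higher and 1 lower. The lower one, A_72_P592869, had the widest difference among all members, -0.89 ± 0.22 (SE; limma, adjusted p = 0.00415). Levels on the HF diet were 5.66 to 6.92 (median 6.12) in the low RFI line and 3.92 to 6.43 (median 5.45) in the high RFI line. On the LF diet they were 5.16 to 6.73 (median 6.21) and 3.63 to 6.74 (median 5.26). The high RFI pigs were split: 4 on each diet lay between 3.63 and 4.14, no pig of either line lay between 4.14 and 5.16, and the other 16 lay at 5.16 or above, as all low RFI pigs did. On the LF diet the SD was 1.06 in the high RFI line and 0.45 in the low RFI line (n = 12 each).

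The overlapping CYCS probe A_72_P573694, which differs from it by the 3 bases shown above, did not separate the lines. Levels on the HF diet were 6.01 to 6.95 (median 6.37) in the low RFI line and 6.19 to 6.90 (median 6.70) in the high RFI line, and on the LF diet 6.11 to 7.01 (median 6.51) and 6.19 to 6.90 (median 6.58). The 4 groups overlapped over most of their range, and the line difference was 0.12 ± 0.07 (SE; adjusted p = 0.272). The probes called higher, A_72_P375810 and A_72_P020106, gave 0.26 ± 0.08 (SE) each (limma, adjusted p = 0.0276 and 0.0313), and neither was called with array brightness as a covariate (0.22 and 0.23). The remaining 10 probes lay between -0.14 and 0.18, none called, and the mean of all 14 probes was -0.03 (adjusted p = 0.752). Which of these probes follows the amount of the CYCS transcript in both lines was not tested.

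The 3 subunits of complex IV that the mitochondrial genome encodes, which form its catalytic core, differed in their calls. Of the probes of COX1, COX2 and COX3, 7 of 25, 3 of 5 and 0 of 14 were called lower in high RFI pigs, and all 44 had negative line differences, from -0.14 to -0.06 with a median of -0.11. After quantile normalization 22 were positive and 22 negative, the median was 0.00, and 1 was called. COX2 levels on the HF diet were 9.86 to 10.26 (median 10.08) in the low RFI line and 9.71 to 10.12 (median 9.94) in the high RFI line, and on the LF diet 9.85 to 10.20 (median 10.02) and 9.73 to 10.18 (median 9.93). The lines overlapped, and the COX2 difference was -0.11 ± 0.04 (SE; limma, adjusted p = 0.0469) and -0.01 after quantile normalization. COX1 gave -0.10 ± 0.04 (SE; adjusted p = 0.0942) and COX3 gave -0.09 ± 0.04 (SE; adjusted p = 0.151), with -0.00 and 0.00 after quantile normalization.

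The COX1 call that did not depend on this scaling came from the probe of the opposite strand shown above. O13550 gave -0.12 ± 0.04 (SE; limma, adjusted p = 0.0411) and -0.13 after quantile normalization (adjusted p = 0.0348), and it was called in 8 of 14 settings. Its partner A_72_P730653 gave -0.09 ± 0.06 (SE; adjusted p = 0.327). Which probe of this pair faces the COX1 transcript was not tested, so O13550 may not measure that transcript.

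Among the nuclear subunits of complex IV, COX6A1 had positive line differences at all 8 probes, 6 of them called higher in high RFI pigs. COX6A1 is the isoform of subunit VIa found in most tissues, whereas COX6A2, its counterpart in heart and skeletal muscle, had no probe under the name rule. Levels at the brightest COX6A1 probe on the HF diet were 4.44 to 4.86 (median 4.71) in the low RFI line and 4.68 to 5.11 (median 4.85) in the high RFI line, and on the LF diet 4.54 to 5.04 (median 4.79) and 4.55 to 5.72 (median 5.03). The lines overlapped, but 21 of 24 high RFI pigs lay above the median of the low RFI pigs. The line difference was 0.20 ± 0.06 (SE; limma, adjusted p = 0.0121) and 0.23 after quantile normalization (adjusted p = 0.00915), and it was called in 14 of 14 settings. The 8 differences ran from 0.14 to 0.22, and 5 of the 6 called probes shared 1 target window. The 2 that were not called lay in windows of their own, and 1 of them was well above background on 20 arrays.

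Of the isoforms of subunits VIIa and VIII, COX7A1 and COX8H had lower calls. COX7A1, the contractile muscle form of subunit VIIa, was at -0.11 ± 0.04 (SE; limma, adjusted p = 0.0456), with 2 of 3 probes called lower, and at 0.02 after quantile normalization, and this probe was called in 7 of 14 settings. COX7A2, the form of most tissues, had positive differences at 6 of 6 probes, from 0.01 to 0.04, and no call. COX8H, the heart and muscle form of subunit VIII, gave -0.13 ± 0.04 (SE; limma, adjusted p = 0.0333) and -0.00 after quantile normalization, with 1 of 2 probes called, in 9 of 14 settings.

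COX7C, a small subunit, had the lowest differences of complex IV. Its 3 tested probes gave -0.24, -0.21 and -0.17, and all were called. Levels at the first of them on the HF diet were 8.35 to 8.65 (median 8.49) in the low RFI line and 7.71 to 8.51 (median 8.24) in the high RFI line, and on the LF diet 7.98 to 8.55 (median 8.44) and 7.80 to 8.48 (median 8.22). The lines overlapped, and 21 of 24 high RFI pigs were below the median of the low RFI pigs. The line difference was -0.24 ± 0.05 (SE; limma, adjusted p = 0.00188), and -0.12 after quantile normalization (adjusted p = 0.124), under which no COX7C probe was called.

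Subunits IV and VIb had isoforms or probes that disagreed. COX4I2, the isoform of subunit IV described from lung, was lower in high RFI pigs, at -0.17 ± 0.06 (SE; limma, adjusted p = 0.0316), and at -0.18 after quantile normalization (adjusted p = 0.0261). It was called in 11 of 14 settings, and not with normexp (adjusted p = 0.0678), with array brightness as a covariate (0.0752) or without the 2 arrays of lowest correlation (0.0843). Levels on the HF diet were 0.61 to 1.09 (median 0.75) in the low RFI line and 0.13 to 0.85 (median 0.62) in the high RFI line, and on the LF diet 0.61 to 1.08 (median 0.73) and 0.32 to 1.06 (median 0.53). Among these, 12 of 24 high RFI pigs were below every low RFI pig while the others overlapped. COX4I1, the common isoform, gave 0.10 ± 0.05 (SE; adjusted p = 0.131). It had 1 probe, with levels of 1.91 to 2.53 in high RFI pigs and 1.77 to 2.40 in low RFI pigs. Under the name COX6B, 2 probes that share a window were called lower, with -0.18 ± 0.04 (SE; limma, adjusted p = 0.00358) at the brighter one and -0.09 and no call after quantile normalization. The third COX6B probe had a positive difference of 0.19 and was not called, and COX6B1 gave -0.11 ± 0.05 (SE; adjusted p = 0.129). COX7B gave -0.08 ± 0.04 (SE; adjusted p = 0.133).

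Of the genes that assemble complex IV, none was called at any of 8 probes, with differences from -0.20 to 0.01 and 5 of 8 at an unadjusted p under 0.05. The lowest was COX10, which makes the farnesylated haem of the enzyme, at -0.20 (adjusted p = 0.0844). COX7A2L, a factor that joins complexes III and IV into larger assemblies, gave 0.09 ± 0.05 (SE; adjusted p = 0.237). COX4NB, a neighbour of COX4I1 in the genome that belongs to a complex of the endoplasmic reticulum, was lower in high RFI pigs, at -0.18 ± 0.05 (SE; limma, adjusted p = 0.00798) and at -0.17 after quantile normalization.

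In complex V 5 of 58 probes, in 3 of 15 genes, were called lower and none higher, beside the 9.85% of all tested probes that were called lower. The median line difference was -0.03, which was positive after quantile normalization (0.05) and with the normexp background correction (0.00). The catalytic core did not pass the test: ATP5A1 gave -0.02 ± 0.05 (SE; 95% interval from -0.12 to 0.08) with 8 positive and 7 negative differences over 15 probes, and ATP5B gave -0.05 ± 0.05 (SE; -0.15 to 0.05) with 5 of each over 10 probes.

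The lower calls in complex V were in small subunits. ATP5G2, one of 3 genes for the c subunit of the rotor, was called at both probes. Levels of the brighter one on the HF diet were 8.09 to 8.52 (median 8.39) in the low RFI line and 7.76 to 8.32 (median 8.22) in the high RFI line, and on the LF diet 8.17 to 8.46 (median 8.27) and 7.998 to 8.31 (median 8.17). The lines overlapped, with 21 of 24 high RFI pigs below the median of the low RFI pigs. The difference was -0.16 ± 0.04 (SE; limma, adjusted p = 0.00574), and -0.04 and no call after quantile normalization. The other c subunit genes, ATP5G1 and ATP5G3, gave -0.11 ± 0.05 (SE; adjusted p = 0.0982) and -0.00 ± 0.05 (SE; adjusted p = 0.982). ATP5E, the epsilon subunit of the stalk, was called lower at 2 of 3 probes (-0.13 and -0.12), and ATP5J2 at 1 of 3 (-0.13), none of them after quantile normalization.

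Within each diet fewer line differences were called. With the HF diet 5 of 211 members were called, 1 higher and 4 lower, against 6.39%, 2.36% and 4.03% of all tested probes. They were UQCRB probe O2995, higher by 0.44 in high RFI pigs, and 1 probe each of COX7C, ATP5G2, COX1 and ATP5E, all lower. Without high RFI pig 10 of the HF diet, whose array was the brightest, 2 members were called, and without this pig and pig 6 of the same group 1 was. Other settings gave more, with 15 members called with slide as a block, 11 with scan day as a covariate and 16 with scaling to the 75th percentile. The shares of all tested probes called in these settings are not given here. At an unadjusted p under 0.05 there were 77 members and 24.2% of all tested probes. With the LF diet 7 members were called, 1 higher and 6 lower, against 2.47%, 1.13% and 1.34% of all tested probes, with 46 members and 16.5% of all tested probes at an unadjusted p under 0.05, and all 7 were probes of UQCRB: O2995, higher by 0.53, and 6 of the overlapping probes, lower. The line by diet term was called at 0 of 211 members by limma and at 0.0% of all tested probes, and at an unadjusted p under 0.05 it picked 3 members and 4.45% of all tested probes. Those 3 were single probes of COX5A, SDHA and UQCRC2, each with a positive line difference on the HF diet and a negative one on the LF diet, and with adjusted p = 0.999. All 24 probes of complex II had a larger line difference on the HF diet than on the LF diet, with a median line difference of 0.05 and -0.10, and 43 of the 44 probes of COX1, COX2 and COX3 a smaller one, with -0.14 and -0.07, but none of these passed the test of the difference.

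The second question was whether the diets differed. At the level of transcripts of complexes II to V, no difference was called: by limma 0 of 211 members, against 0.42% of all tested probes, and 12 members, or 5.69%, at an unadjusted p under 0.05, against 13.1% of all tested probes. Within the low RFI line 0 members and 0.199% of all probes were called, and 2 members and 11.6% of all probes had an unadjusted p under 0.05. Within the high RFI line 0 members and 0.0% of all probes were called, and 11 members and 5.47% of all probes had an unadjusted p under 0.05. For 202 of the 211 members the 95% interval of the diet difference, averaged over both lines, lay within 0.25 of 0 on the log2 scale. The line differences called at SDHB (-0.13) and ATP5G2 (-0.16) were smaller than that bound, so diet differences of their size can lie within it.

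The 12 members with an unadjusted p under 0.05 came from 4 genes, and none passed the adjustment. SDHB gave 7 of them, from 0.10 to 0.14 and so with higher levels on the HF diet, and the brightest SDHB probe had a diet difference of 0.10 ± 0.04 (SE; limma, adjusted p = 0.295). COX6A1 gave 3, from -0.13 to -0.12, and COX7A2 gave 1, at -0.11 ± 0.05 (SE; adjusted p = 0.329), so with lower levels on the HF diet, while the brightest COX6A1 probe was not among them. The last was an ATP5E probe at 0.18 ± 0.06 (SE), which had the smallest adjusted p of all members, 0.153.

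**Figure D4:**
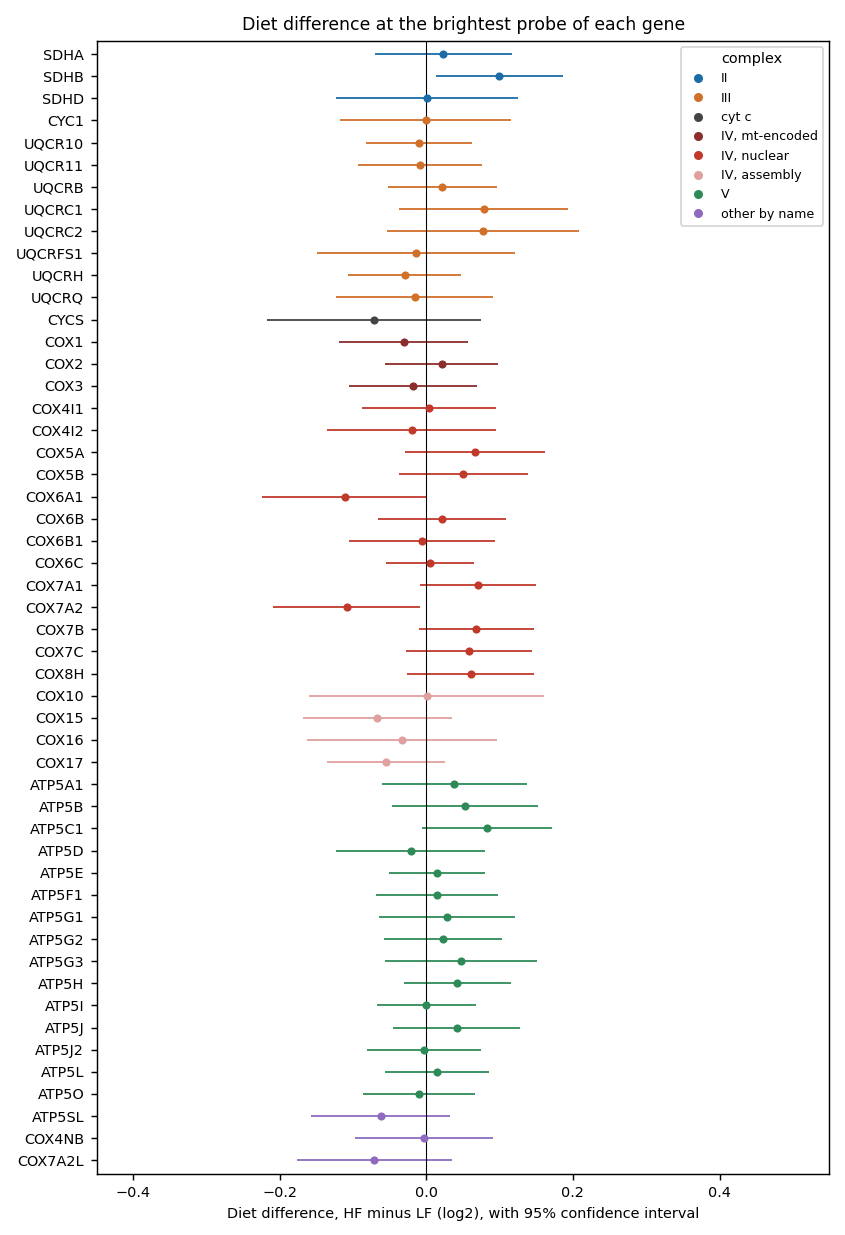
Diet difference (HF minus LF, log2, horizontal axis) with its 95% confidence interval at the brightest probe of each of the 51 genes, coloured by complex. The points lie close to 0, and none of the 211 member probes was called.

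Within the groups, the levels of SDHB, CYCS, COX5A and ATP5A1 were correlated with each other across pigs. One gene of each complex and CYCS were taken at the brightest probe, the 4 group means were removed, and the 10 pairs were compared over 48 pigs with a two-sided permutation test of 100000 permutations within groups. The 6 pairs of SDHB, CYCS, COX5A and ATP5A1 had Pearson correlations from 0.57 to 0.71 and Spearman correlations from 0.53 to 0.72. SDHB and ATP5A1 had r = 0.71 and rho = 0.72, with p = 1e-05 for r, the smallest value these permutations can give, and an adjusted p of 2e-05. Without the 2 pigs farthest from the median of SDHB this r was 0.69, with slide means removed as well it was 0.64, after quantile normalization it was 0.63, and on the scan days taken separately it was 0.72 and 0.52. CYCS and COX5A, the lowest of the 6, had r = 0.57 and rho = 0.53 (permutation p = 5e-05 and 0.00021, adjusted 8.33e-05 and 0.00035), and 0.67 and 0.35 on the separate scan days.

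UQCRC2 of complex III followed the others less closely. Its 4 pairs had r from 0.29 to 0.39 and rho from 0.32 to 0.37, with permutation p from 0.0104 to 0.0588 for r (adjusted 0.0148 to 0.0588), and the pair with ATP5A1 did not pass on r. With SDHB, r fell from 0.31 to 0.18 without the 2 pigs farthest from the median of SDHB, so that this relation rested in part on those pigs. All values of a pig come from 1 array and share its centring, and the part of that in these correlations was not tested beyond the settings above.

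**Figure D5:**
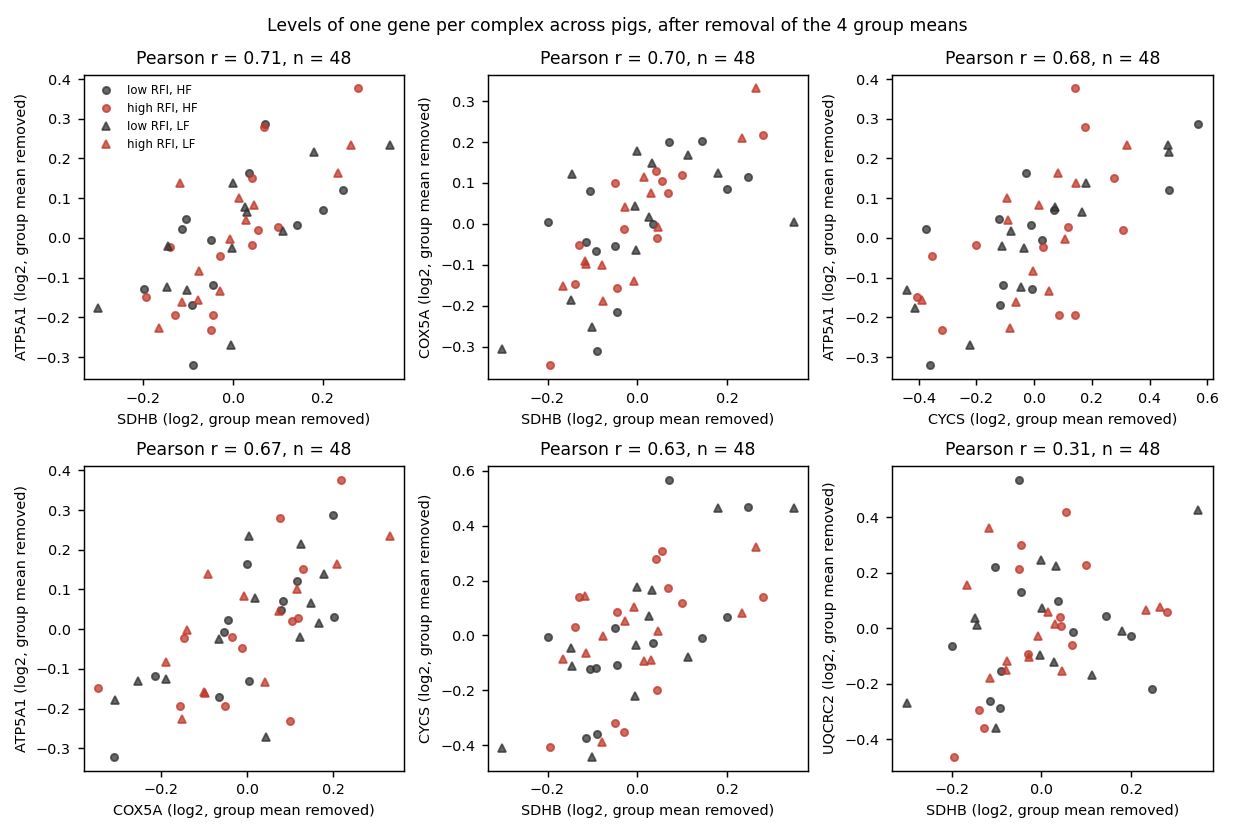
Levels of pairs of genes from different complexes in 48 pigs (log2, group means removed on both axes), with symbols by line and diet. Pearson r is 0.71, 0.70, 0.68, 0.67 and 0.63 in the first 5 panels and 0.31 for SDHB with UQCRC2.

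After these correlations had been seen, the same 5 genes were set against the mean level of the slow fibre list, the mean level of the fast fibre list and the median signal of the array. None of the 15 relations passed the adjustment (two-sided permutation tests, smallest adjusted p = 0.367). With the slow fibre list r was between 0.16 and 0.24, with the fast fibre list between -0.04 and 0.27, and with array brightness between -0.26 and 0.15. These values were not uniform over the scan days. On the separate days UQCRC2 had r = -0.18 and 0.61 with the slow fibre list, and 0.21 and -0.27 with the fast fibre list. The r of 0.71 between SDHB and ATP5A1 was thus higher than that of either gene with any of these 3 measures, a difference that was not itself tested.

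Other genes of mitochondrial energy metabolism were counted at the brightest probe of each gene. Beside these counts, 9.85% of all tested probes were called lower and 6.57% higher. Above a level of 6 the shares were 33.1% and 1.85%, and after quantile normalization 8.25% of all tested probes were called lower. Whether the lists differ from these shares was not tested. For complex I, which feeds electrons from NADH into the chain, 8 of 37 genes were called lower in high RFI pigs and none higher, with a median of -0.07, and after quantile normalization 3 were called lower with a median of -0.01. NDUFV3 gave -0.22 ± 0.05 (SE; limma, adjusted p = 0.000561) and -0.19 after quantile normalization, and NDUFA12 gave -0.18 and -0.12. In the citric acid cycle 3 of 15 genes were called lower, among them IDH3G at -0.18 before and -0.19 after quantile normalization. Among regulators of mitochondrial biogenesis 3 of 14 were called lower and none higher, namely TFB1M, a factor for the mitochondrial ribosome, at -0.27 ± 0.06 (SE; adjusted p = 0.000711), YY1 at -0.16 and PPARD at -0.28, and all 3 were also called after quantile normalization. Of 11 assembly factors 1 was called at the brightest probe, ATPAF2 of complex V, at -0.20, while over all 18 probes of the list 5 were called higher and 1 lower, with the same counts after quantile normalization. Of 12 genes of import and outer membrane 3 were called lower, TOMM70A, PHB2 and TOMM22, and after quantile normalization 1 was called lower and 1 higher, with PHB2 and TOMM22 no longer called (adjusted p = 0.0668 and 0.0741). Of 8 genes of ATP export and uncoupling 1 was called lower, SLC25A4, at -0.13 and at -0.01 after quantile normalization. No gene of these lists was called for diet.

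Markers of fibre types and of other cells were measured beside the members. Of the fast fibre genes, 3 of 10 were called lower in high RFI pigs, TNNI2, ATP2A1 and MYH2, with a median of -0.11 over the list and of -0.02 and no call at the brightest probes after quantile normalization. Over all 64 probes of these genes 30 were called lower, and 6 after quantile normalization. Of all tested probes, 47.4% at levels of 8 to 9 and 37.2% at levels of 9 to 12 were called lower, beside 9.85% at any level. The count of the fast fibre probes was thus not set apart from that of other probes with high levels. Of the slow fibre genes 0 of 7 were called at the brightest probe, and 1 of their 43 probes was called, higher. Their median line difference was -0.02 at the brightest probes and 0.13 over the 43 probes. After quantile normalization these medians were 0.08 and 0.19, with 2 of the 43 probes called higher. The median over the 64 fast fibre probes was -0.11, and -0.01 after quantile normalization. The mean level of the fast fibre list on the HF diet was 9.19 to 9.59 in the low RFI line and 8.88 to 9.40 in the high RFI line, and on the LF diet 9.17 to 9.53 and 9.07 to 9.43, so that the lines overlapped. Some markers of other cells were higher in high RFI pigs under both scalings: CSF1R at 0.94 and CD14 at 0.30 of 6 leukocyte genes, COL1A1 at 0.37 and COL1A2 at 0.32 of 6 fibroblast genes, and FABP4 at 0.32 of 6 adipocyte genes. Over all tested probes 6.57% were called higher. CSF1R had low levels, with group medians from -4.01 to -2.61. At the brightest probe, 4 of the 6 leukocyte genes were well above background on all 48 arrays. No marker was called among 5 endothelial and 2 erythroid genes. The mean level of the fibroblast list on the HF diet was 3.43 to 4.22 in the low RFI line and 3.73 to 4.42 in the high RFI line, and on the LF diet 3.41 to 4.35 and 3.55 to 4.39. In the same order, the leukocyte list was at -1.64 to -0.50, -1.21 to 0.28, -1.20 to -0.42 and -1.17 to -0.20, and the adipocyte list at -0.08 to 1.32, 0.48 to 2.01, -0.07 to 1.84 and 0.13 to 1.73. The part of these cells in the differences of the members was not tested.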

How the data were processed

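The authors deposited scanner values of longissimus RNA made with Agilent Feature Extraction, in which each processed spot intensity is background-subtracted, for 48 arrays in 1 colour, and a table of log2 values over 34472 probes, used as an alternative. The submitters' processing notes name R 2.10.0. Spots of controls or with an outlier flag were dropped, spots of a probe were averaged, and each array's mean over tested probes was subtracted from its log2 values. limma 3.58.1 in R 4.3.3 was fitted to the 4 group means over 42125 probes with Benjamini-Hochberg adjustment, after a test on simulated data. In that test of the line comparison, 200 probes drawn from all 42125 were changed in independent normal values. Of differences of 0.25, 0.5 and 1, 36%, 83% and 99.5% were recovered, with 6.49%, 7.26% and 4.78% of calls false. Recovery among the members, whose line differences had a median SE of 0.05, was not counted separately. Whether these shares hold where many more probes differ, or for arrays with the shared shift of high levels, was not tested. The number of arrays limits the precision. The 6 slides of 8 arrays held every group equally, and slide, scan day and 12 other alternatives were tried. Correlations used Python 3.11.15. Genes named were those of a preset list of subunits and isoforms, plus the 5 largest called differences each way. The members and lists were chosen with earlier results of these data known. The replicate numbers of the pigs follow the order of the samples.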

Additional observations from a re-analysis of the deposited data

How the results depend on the processing

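Against 47 members called for line, 16 were called after quantile normalization, 24 with array brightness as a covariate, 31 without the 2 arrays of lowest correlation (high RFI pigs 10 and 6 of the HF diet), and 8 of 51 genes with probes averaged by gene. Of all tested probes, 16.4% were called for line in the main setting, 14.9% after quantile normalization and 12.9% with array brightness. Against 5 on the HF diet, the counts were 16 with the 75th percentile, 2 with quantile normalization, 3 with normexp, 2 with no filter, 12 with probes well above background on all 48 arrays, 15 with slide as a block, 11 with scan day, 1 with array brightness, 2 without the brightest array, 1 without the 2 arrays of lowest correlation, 12 with the variance analysis without moderation and 2 with gene means. Against 7 on the LF diet, they were 1 with quantile normalization, 3 with normexp, 2 with no filter, 3 with array brightness and 0 with gene means. For these alternatives within a diet, the shares of all tested probes called are not given here. A change in the members and a change over the whole array can therefore not be told apart in them. Counts for diet and for line by diet were 0 in each of the 14 alternatives. Among called probes that are named, the sign turned at COX7A1 after quantile normalization (0.016), and with gene means at UQCRB probe O2995 (-0.088) and both CYCS probes called higher (-0.032), where 1 mean stands for probes that disagree. Among named probes that were not called, SDHA, COX3, ATP5A1, ATP5B and ATP5G3 went from negative to positive after quantile normalization. The r of SDHB with ATP5A1 was 0.63 after quantile normalization. No paired analysis was possible because the labels give the pigs no shared numbers across groups. The cause of the other changes was not tested.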
